A study of Triticum aestivum with 18 samples.

Results

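A module of 200 genes was described whose mean level went up between Day 7 and Day 21 of wheat microspore culture in the cultivar Nanda and went down over the same interval in the cultivar Sadash. The members were chosen from 107892 high-confidence gene models by their mean TPM, a level scaled for transcript length and library size, over the 3 libraries of each group. The score of a gene was the smaller of 2 changes on the log2(TPM + 1) scale, the rise from Day 7 to Day 21 in Nanda and the fall from Day 7 to Day 21 in Sadash, and the 200 highest scores were kept. The values of Day 7 and Day 21 in both cultivars therefore chose the members, and they are given below as a description without a test. The Day 0 libraries played no part in the choice and carry the tests.

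Nanda is a spring wheat that responds strongly to microspore culture, and Sadash is a spring wheat with a limited response. Spikes of both cultivars were cold-treated at the uninucleate stage before microspores were isolated, and total RNA was extracted from pooled material at the microspore (Day 0), proembryo (Day 7) and embryo-like structure (Day 21) stages. Each of the 6 groups held 3 biological replicates, which gave 18 libraries. Each level of response was represented by 1 cultivar, so that cultivar and response cannot be told apart. RNA came from pooled cells, in which fewer cells of a type and less RNA per cell cannot be told apart.

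Microspore embryogenesis turns an immature male gametophyte away from pollen formation and towards a multicellular embryo. Along this route the cell lays down new walls, in which callose is an early and transient glucan, breaks down parts of its cytoplasm by autophagy and responds to calcium and stress hormones. Hexaploid wheat carries up to 3 related copies of most genes, on its A, B and D subgenomes, and reads shared by near-identical copies were divided among them when the counts were estimated, so values of such copies are uncertain.

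The shallowest library (Sadash Day 21 replicate 2) held 6675332 counts in high-confidence genes and the deepest (Sadash Day 21 replicate 1) held 27463367. The means of the stage markers, other than the BABY BOOM gene, went in the same direction in both cultivars between Day 7 and Day 21. The vicilin-type storage protein genes TRAESCS4A02G296000 and TRAESCS5D02G440000 were at 89.7 ± 4.65 and 186 ± 26.7 TPM (SD, n = 3) in Nanda on Day 21, and at 32.6 ± 31.5 and 96.6 ± 41.7 TPM in Sadash on Day 21. TRAESCS3D02G389100, of the BABY BOOM type of embryogenesis regulators, was at 18.99 ± 0.619 TPM in Nanda and 36.7 ± 9.39 TPM in Sadash on Day 7, and at 28.7 ± 4.70 and 18.8 ± 4.36 TPM on Day 21. The pollen extensin gene TRAESCS5D02G376200 was low on Day 0, at 1.21 ± 0.54 TPM in Nanda and 0.28 ± 0.356 TPM in Sadash. It was at 137 ± 8.14 TPM in Nanda and 224 ± 53.4 TPM in Sadash on Day 7, and at 0 and 0.087 ± 0.15 TPM on Day 21. The GAMYB-type genes TRAESCS3A02G336500 and TRAESCS7B02G278400, regulators of pollen development, were highest on Day 0 in both cultivars, at 9.85 ± 0.779 and 33.8 ± 2.36 TPM in Nanda and 16.9 ± 0.631 and 15.9 ± 2.79 TPM in Sadash. The members were chosen to be opposed between the cultivars. By that choice they could not share the course of the vicilin genes in Sadash or of the extensin gene in Nanda. The BABY BOOM type gene shared their direction in both, and its part in the pattern was not tested.

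The module was modest in size and in change. Scores ran from 2.11 down to 0.94 with a median of 1.06, and 131 of the 200 genes scored at least 1, that is a 2-fold change or more on the TPM + 1 scale in both cultivars. The limiting change was that of Nanda in 100 members and that of Sadash in the other 100. Over the 200 genes the median of the group means in Nanda was 3.79 TPM on Day 0, 1.89 TPM on Day 7 and 7.10 TPM on Day 21. In Sadash it was 6.04 TPM on Day 0, 6.41 TPM on Day 7 and 1.75 TPM on Day 21. Day 7 was the lowest Nanda stage for 148 members, and Day 21 was the lowest Sadash stage for 163. By these medians the members stood higher in Sadash on Day 0 and Day 7 and higher in Nanda on Day 21. The choice favours this order on Day 7 and Day 21. On Day 0, 138 members had the higher mean in Sadash and 57 in Nanda. The highest group mean was in Nanda on Day 21 for 86 members, in Sadash on Day 0 for 55 and in Sadash on Day 7 for 55.

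**Figure D1:**
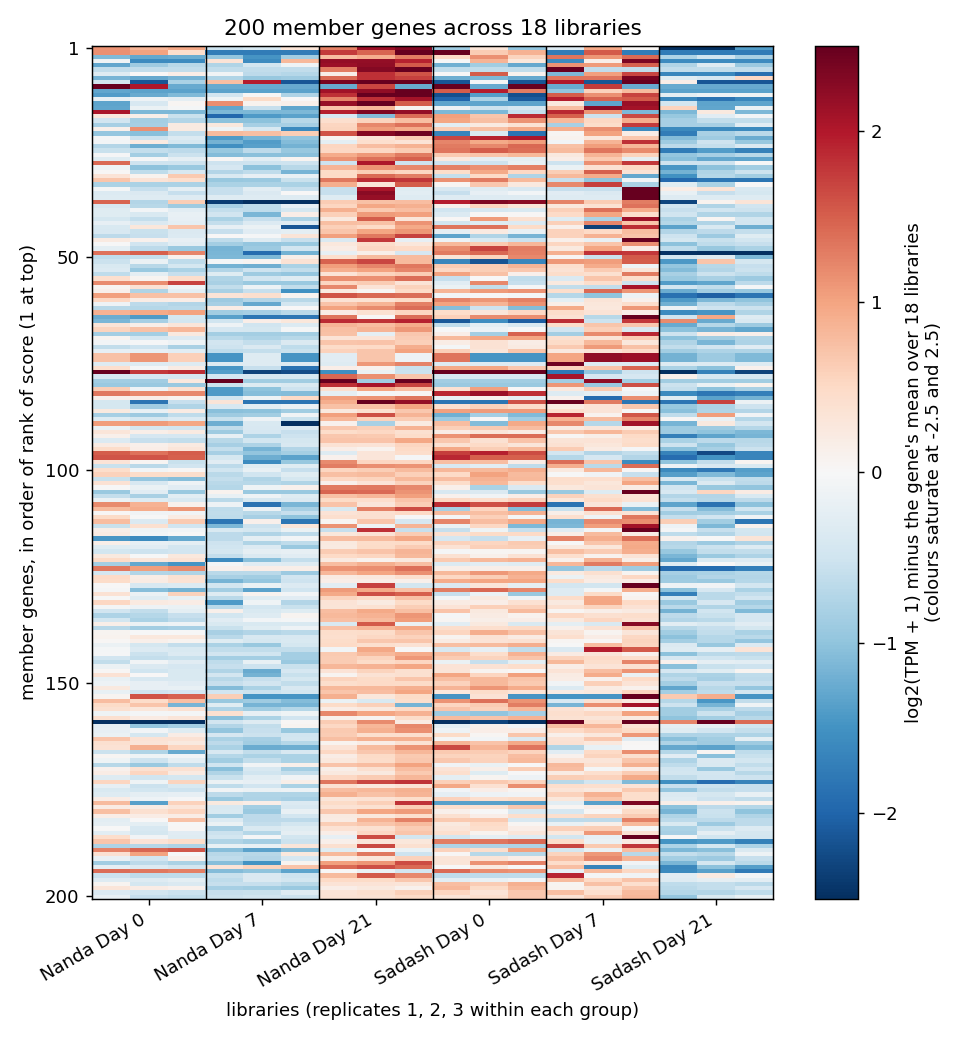
Each row is one of the 200 members in order of score and each column one of the 18 libraries; colour is log2(TPM + 1) minus the gene's own mean over the 18 libraries. Nanda Day 21 is above the gene mean and Nanda Day 7 and Sadash Day 21 below it in most rows, as the choice of members sets, and the 3 Sadash Day 7 columns differ among themselves, with replicate 3 the darkest.

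The mean of log2(TPM + 1) over the 200 genes gave a value for each library. It was 2.28, 2.09 and 2.14 in the 3 Nanda Day 0 libraries, 1.68, 1.65 and 1.69 on Day 7 and 2.88, 3.13 and 3.09 on Day 21. In Sadash it was 2.54, 2.60 and 2.55 on Day 0, 2.58, 2.69 and 3.02 on Day 7 and 1.47, 1.58 and 1.60 on Day 21. On Day 0, which the choice did not use, every Sadash library lay above every Nanda library. Over all tested genes the same mean stayed between 2.30 and 2.56. TPM rose somewhat across all tested genes in Nanda between Day 7 and Day 21, by a median of 0.16 on the log2(TPM + 1) scale against 1.20 for the members, while in Sadash the median over all tested genes was -0.05 against -1.21 for the members.

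**Figure D2:**
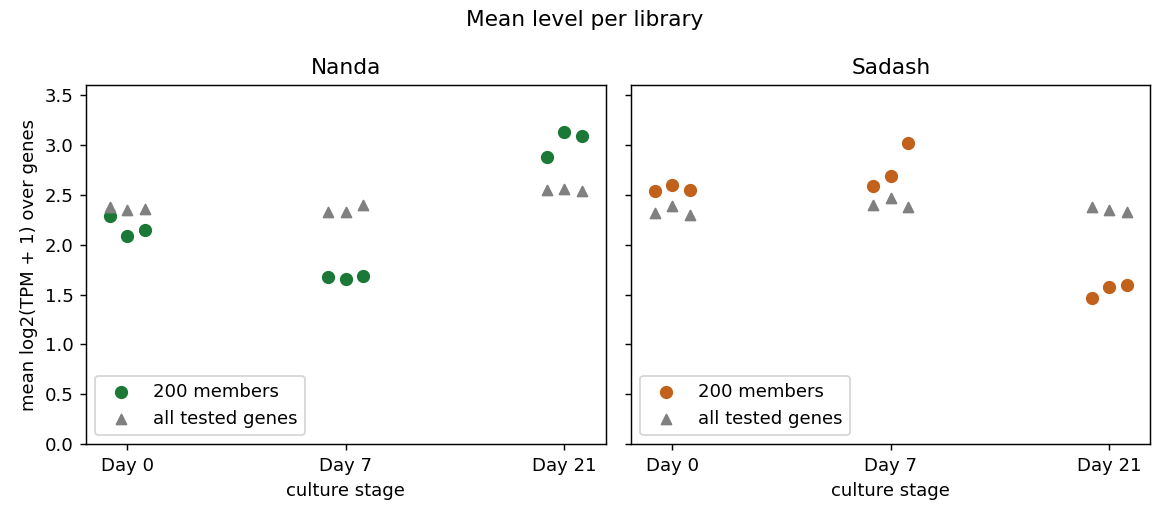
Points are the mean of log2(TPM + 1) over the 200 members (circles) or over all 62692 tested genes (triangles), one point per library, by stage for Nanda and Sadash. The members lie between 1.65 and 3.13 in Nanda and between 1.47 and 3.02 in Sadash, and on Day 0 all 3 Sadash libraries are above the 3 of Nanda.

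The individual libraries carried the pattern unevenly. All 3 Nanda Day 21 libraries were above all 3 Nanda Day 7 libraries in 180 of the 200 genes, a separation also seen in 43% of all tested genes. All 3 Sadash Day 7 libraries were above all 3 Sadash Day 21 libraries in 144 members, against 28.9% of all tested genes, and both separations held in 143 members, against 5.18%. The highest Sadash Day 7 value came from replicate 3 in 96 members, from replicate 2 in 73 and from replicate 1 in 31, and the highest library held a median of 43.9% of the summed TPM of that group. In 12 members all of the Sadash Day 7 signal, and in 4 members all of the Nanda Day 21 signal, lay in a single library. For the 56 members that did not separate in Sadash, the fall was one of means and not of every library.

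Of the 200 genes, 182 reached 1 CPM (1 count in a total scaled to the same size for every library) in at least 1 library and entered a fit across 62692 genes with edgeR's quasi-likelihood test. Calls required a fold change of 2 or more in either direction with an adjusted p below 0.01. The other 18 were never that abundant and are given by TPM only. In this fit, which normalizes by TMM and not by TPM, 84 members met the thresholds for a rise in Nanda, beside 15.8% of all tested genes, and 124 for a fall in Sadash, beside 18.4%. Both were met by 66 members and by 159 genes in all, which is 0.254% of the tested genes. A change higher in Nanda than in Sadash was called for 155 members, beside 6.8% of all tested genes. These counts use the libraries that chose the members and describe how far the choice carried over to another scale. The edge of the module was not sharp. The last members were TRAESCS2A02G498800, TRAESCS1A02G439500 and TRAESCS5A02G177800, with scores of 0.9415, 0.9413 and 0.9406, and the first genes left out were TRAESCS1D02G004900, TRAESCS5A02G516800 and TRAESCS2B02G578600, with 0.9397, 0.9389 and 0.9388.

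Among the 12 highest scores, 7 rested on 421 counts or more over the 18 libraries and 5 on 63 or fewer. First in rank was TRAESCS5A02G196400, for which no description was at hand. In Nanda it was at 15.0, 12.3 and 13.3 TPM on Day 0, at 4.03, 4.41 and 8.22 TPM on Day 7 and at 16.5, 30.8 and 34.9 TPM on Day 21. In Sadash it was at 2.95, 8.13 and 2.69 TPM on Day 0, at 4.73, 13.3 and 6.60 TPM on Day 7 and at 0.07, 0 and 1.77 TPM on Day 21. Neither cultivar's Day 7 and Day 21 libraries overlapped, and unlike most members it stood higher in Nanda on Day 0, though the log2 difference of 1.62 ± 0.54 (SE) did not pass the test (adjusted p = 0.034). Its near neighbour TRAESCS5A02G196700, a few identifiers further on, was a member as well.

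TRAESCS3B02G086400, with 4 transcript models, ranked next among those with many counts. In Nanda it was at 0.60, 0.41 and 0.45 TPM on Day 0, at 0.73, 0.23 and 0.87 TPM on Day 7 and at 4.86, 5.43 and 7.32 TPM on Day 21. In Sadash it was at 3.84, 6.55 and 4.03 TPM on Day 0, at 7.61, 6.33 and 8.12 TPM on Day 7 and at 1.00, 1.43 and 0.96 TPM on Day 21. The gene was thus expressed in Sadash from the isolated microspore onward and became abundant in Nanda only by Day 21.

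TRAESCS4A02G056400 was close to silent on Day 0 in both cultivars. Its Nanda libraries held 0.08, 0 and 0.09 TPM on Day 0, 0.44, 0.26 and 0.31 TPM on Day 7 and 5.48, 7.68 and 6.99 TPM on Day 21. Those of Sadash held 0.04, 0.12 and 0 TPM on Day 0, 5.16, 5.19 and 11.6 TPM on Day 7 and 0.98, 0.83 and 2.5 TPM on Day 21. Both cultivars reached a similar peak, in Sadash on Day 7 and in Nanda on Day 21. TRAESCS4A02G098600 had the same form, with means of 0.927 ± 0.205, 2.56 ± 1.03 and 21.9 ± 5.85 TPM on Day 0, Day 7 and Day 21 in Nanda and 0.257 ± 0.445, 11.7 ± 2.37 and 3.09 ± 0.202 TPM in Sadash.

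A pair of members lay next to each other on chromosome 2D. TRAESCS2D02G459100 was at 3.13, 1.77 and 1.66 TPM in Nanda on Day 7 and at 3.86, 14.4 and 12.0 TPM on Day 21, while Sadash was at 1.00, 7.90 and 12.9 TPM on Day 7 and at 0.41, 0.42 and 0.18 TPM on Day 21. Its neighbour TRAESCS2D02G459200 was more abundant, at 50.3, 48.9 and 44.2 TPM in Nanda on Day 7 and 87.3, 144 and 158 TPM on Day 21, and at 29.8, 58.4 and 32.5 TPM in Sadash on Day 7 and 7.80, 16.0 and 17.5 TPM on Day 21. In both genes the Nanda Day 21 value of replicate 1 was the lowest of its group, and the Sadash Day 7 libraries of TRAESCS2D02G459100 differed by a wide margin. One further close pair, TRAESCS1D02G411100 and TRAESCS1D02G411400, was found on chromosome 1D.

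The 4 high-scoring members with few reads were TRAESCS5A02G180900 with 24 counts over all 18 libraries, TRAESCS1D02G096500 with 35, TRAESCS6B02G198200 with 7 and TRAESCS5A02G169900 with 16. TRAESCS6B02G198200 was at 2.75, 6.56 and 8.01 TPM in Nanda on Day 21 and at 7.77, 0 and 0 TPM in Sadash on Day 7, and was without counts in every other group. TRAESCS5A02G169900 was at 0, 6.62 and 0 TPM in Nanda on Day 21 and at 0, 7.03 and 0 TPM in Sadash on Day 7, so that its rise and its fall each stood on a single library. TRAESCS5A02G180900 was at 0, 8.83 and 0 TPM in Sadash on Day 7 and TRAESCS1D02G096500 at 0, 2.28 and 14.1 TPM. TRAESCS1D02G411100 passed the CPM filter with 63 counts in all and was at 16.6, 0 and 40.4 TPM in Sadash on Day 7. The 4 genes first named were among the 18 that were not tested, and 27 of the 200 members had fewer than 100 counts in total.

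At the other end of abundance, 10 members had the highest mean over the 18 libraries. TRAESCS6B02G327500 led, with means of 126 ± 15.6 TPM in Nanda on Day 7 and 243 ± 18.8 TPM on Day 21, but its Sadash Day 7 libraries were at 147, 26.4 and 69.7 TPM against 27.7, 41.6 and 32.6 TPM on Day 21 and overlapped. TRAESCS6A02G112400 went from 54.6 ± 5.92 to 112 ± 6.39 TPM in Nanda and from 134 ± 22.4 to 56.9 ± 6.37 TPM in Sadash, with no overlap in either. TRAESCS3A02G056800 was at 3.23, 0 and 0 TPM in Nanda on Day 7 and at 32.7, 35.0 and 36.1 TPM on Day 21, and in Sadash at 50.4, 32.8 and 52.0 TPM on Day 7 and 3.47, 22.3 and 26.3 TPM on Day 21. This was the steepest change in Nanda among the 10.

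TRAESCS5B02G112800 and TRAESCS5D02G118000, the members with the most counts (92514 and 74635 over the 18 libraries), had a similar profile. The former was at 21.3 ± 2.53, 30.7 ± 2.79 and 62.2 ± 6.94 TPM in Nanda over the 3 stages and at 36.5 ± 1.78, 44.4 ± 4.48 and 21.8 ± 2.73 TPM in Sadash. The latter was at 16.9 ± 3.97, 17.5 ± 1.40 and 58.0 ± 6.88 TPM in Nanda and at 42.3 ± 2.59, 37.7 ± 4.72 and 15.7 ± 3.13 TPM in Sadash. In these deeply sequenced genes all the Day 7 and Day 21 libraries of a cultivar were apart. TRAESCS5B02G452600 went from 17.0 ± 3.69 to 60.1 ± 7.87 TPM in Nanda and from 34.2 ± 8.29 to 12.6 ± 2.7 TPM in Sadash. TRAESCS2B02G579100 moved between 14.8 ± 1.26 and 34.1 ± 1.43 TPM in Nanda and between 31.1 ± 5.95 and 11.0 ± 1.76 TPM in Sadash.

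TRAESCS2B02G354400 and TRAESCS6D02G390600 differed from these in that Day 0 was their highest stage or nearly so. The first was at 65.0 ± 4.09 TPM on Day 0, 11.9 ± 0.752 TPM on Day 7 and 26.1 ± 7.04 TPM on Day 21 in Nanda, and at 81.0 ± 9.07, 14.8 ± 1.54 and 5.75 ± 1.47 TPM in Sadash. The second was at 59.8 ± 5.93, 28.4 ± 0.495 and 61.7 ± 5.98 TPM in Nanda and at 28.7 ± 0.106, 14.0 ± 1.68 and 6.41 ± 0.629 TPM in Sadash, higher in Nanda at each stage.

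An annotation was at hand for 14 of the 200 members, nearly all of it a gene ontology (GO) term from lists that the study had drawn up on these same libraries, some of which were shortened in the copy used. The terms fell into callose synthesis, autophagy, calcium transport, defence and jasmonate signalling, lipid metabolism, vesicle transport and control of gene expression. A list chosen on these samples is not independent evidence of a direction.

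Callose is the beta-glucan that encloses young microspores and is laid down in new cell plates and under stress. The members TRAESCS3D02G246000 and TRAESCS3A02G245500 carried the term for its synthesis. TRAESCS3D02G246000 was at 6.76, 5.31 and 4.64 TPM on Day 0, 3.98, 3.44 and 5.32 TPM on Day 7 and 11.1, 10.4 and 10.0 TPM on Day 21 in Nanda. In Sadash it was at 13.3, 13.8 and 15.1 TPM on Day 0, 7.46, 13.6 and 11.4 TPM on Day 7 and 5.63, 3.47 and 5.78 TPM on Day 21. TRAESCS3A02G245500 was nearly the same in level, with means of 6.99 ± 1.56, 5.12 ± 0.301 and 10.8 ± 0.192 TPM in Nanda and 15.0 ± 1.45, 11.6 ± 2.92 and 5.01 ± 0.171 TPM in Sadash. Neither gene overlapped between Day 7 and Day 21 in either cultivar. On Day 0 both were lower in Nanda, by log2 fold changes of -1.33 ± 0.21 (SE, adjusted p = 9.5e-05) and -1.1 ± 0.15 (adjusted p = 3.6e-05), but they came from a list the study had selected for being lower in Nanda on Day 0. Of the 8 genes on that list 6 were called as rising in Nanda between Day 7 and Day 21, all of them outside the module. Over all tested genes 15.8% were called so. In Sadash 1 of the 8 rose and 1 fell, beside 16.8% and 18.4% of all tested genes. The gene that fell was the member TRAESCS3A02G245500. Within this list a rise in Nanda was thus called more often than a fall in Sadash. Selecting genes for low Nanda values on Day 0 may favour that, so no origin of the difference can be read from it.

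Autophagy delivers cytoplasm and organelles to the vacuole for breakdown. The members TRAESCS7A02G015000, TRAESCS7D02G210700 and TRAESCS7B02G115500 were among 19 genes listed under this term because they were higher in Nanda on Day 21. TRAESCS7A02G015000 had little spread: it was at 8.78, 8.03 and 8.00 TPM on Day 0, 5.29, 4.94 and 5.41 TPM on Day 7 and 11.1, 11.7 and 12.5 TPM on Day 21 in Nanda. In Sadash it was at 15.7, 15.2 and 16.6 TPM on Day 0, 9.68, 11.5 and 11.2 TPM on Day 7 and 4.27, 4.29 and 4.56 TPM on Day 21, so that its means went down at each step in Sadash and dipped and recovered in Nanda.

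TRAESCS7D02G210700 was at 3.62 ± 0.0819, 4.30 ± 0.474 and 9.78 ± 0.855 TPM in Nanda and at 5.59 ± 0.223, 10.0 ± 1.08 and 2.94 ± 0.508 TPM in Sadash. TRAESCS7B02G115500 was at 3.78 ± 0.501, 6.28 ± 1.53 and 13.2 ± 1.55 TPM in Nanda and at 6.52 ± 0.481, 12.2 ± 2.16 and 4.47 ± 0.542 TPM in Sadash. Both had their Sadash peak on Day 7, when their level was close to that of Nanda on Day 21. In the list of 19, a rise in Nanda from Day 7 to Day 21 was called for 7, beside 15.8% of all tested genes. A fall in Sadash was called for 8, beside 18.4%. The median log2 fold changes were 0.82 and -0.81, against -0.05 and 0.00 over all tested genes. The 3 members were among the 8 that fell and not among the 7 that rose, and TRAESCS7A02G208300, not a member, was called in both. On Day 0 the log2 fold changes of the members were -0.93 ± 0.10, -0.62 ± 0.13 and -0.79 ± 0.18 in the order above, lower in Nanda with adjusted p of 1.3e-06, 0.0019 and 0.0026 but less than 2-fold, and so not called.

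**Figure D3:**
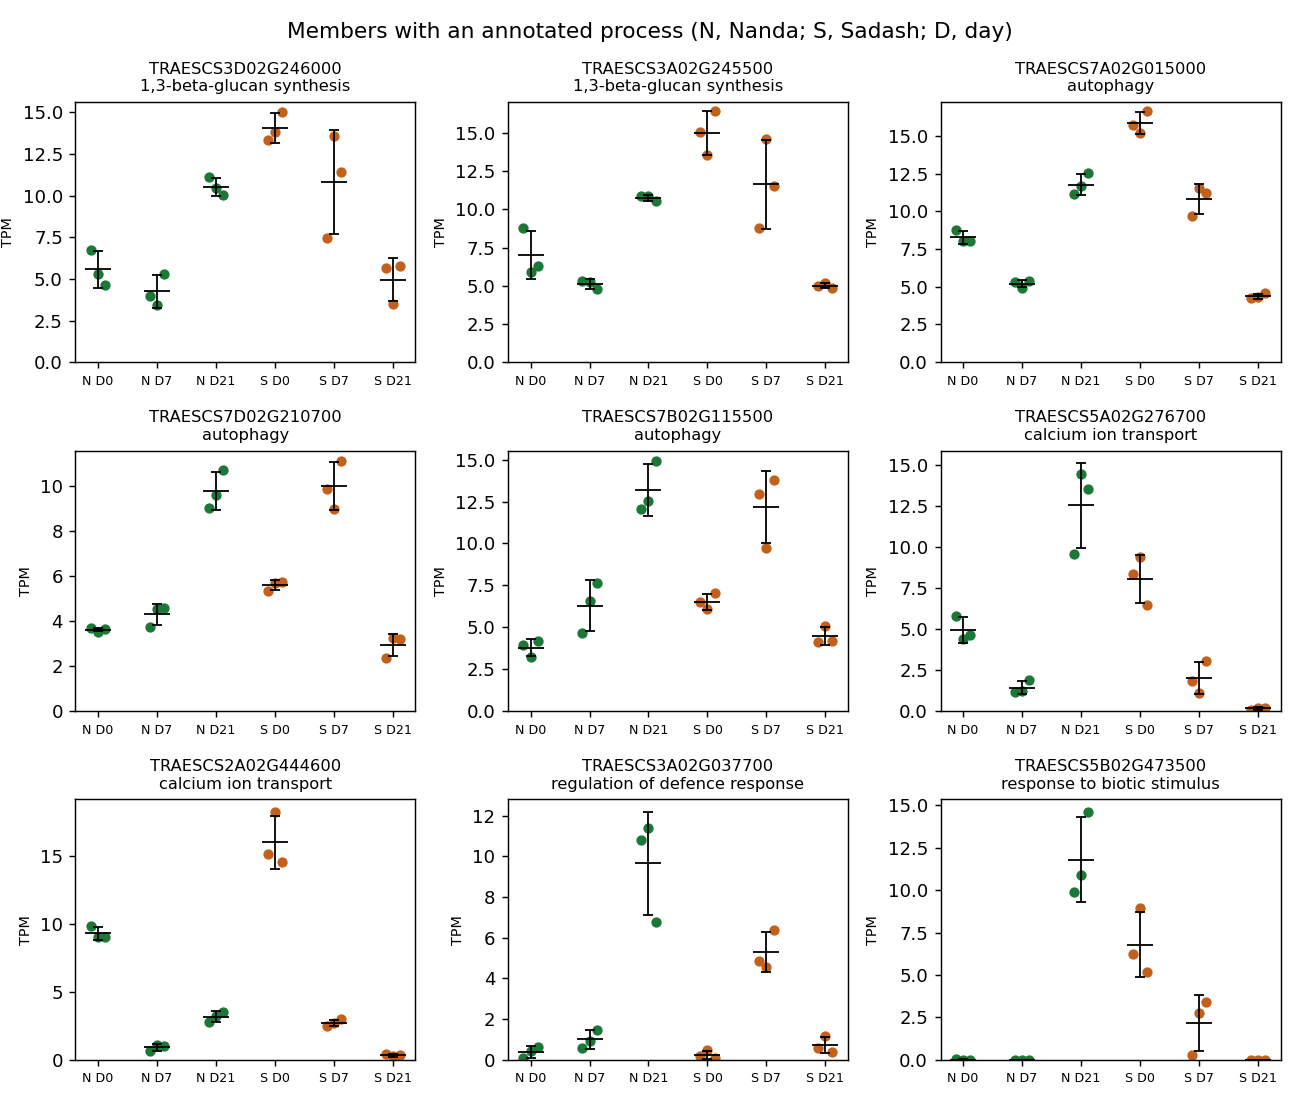
TPM of 9 members with an annotated process in the 3 Nanda (green) and 3 Sadash (orange) stages; points are libraries, horizontal bars the mean and whiskers the SD of 3 replicates. In each panel Nanda Day 21 stands above Nanda Day 7 and Sadash Day 7 above Sadash Day 21, while Day 0 ranges from near 0 for TRAESCS3A02G037700 to the highest stage of Sadash for TRAESCS2A02G444600.

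**Figure D4:**
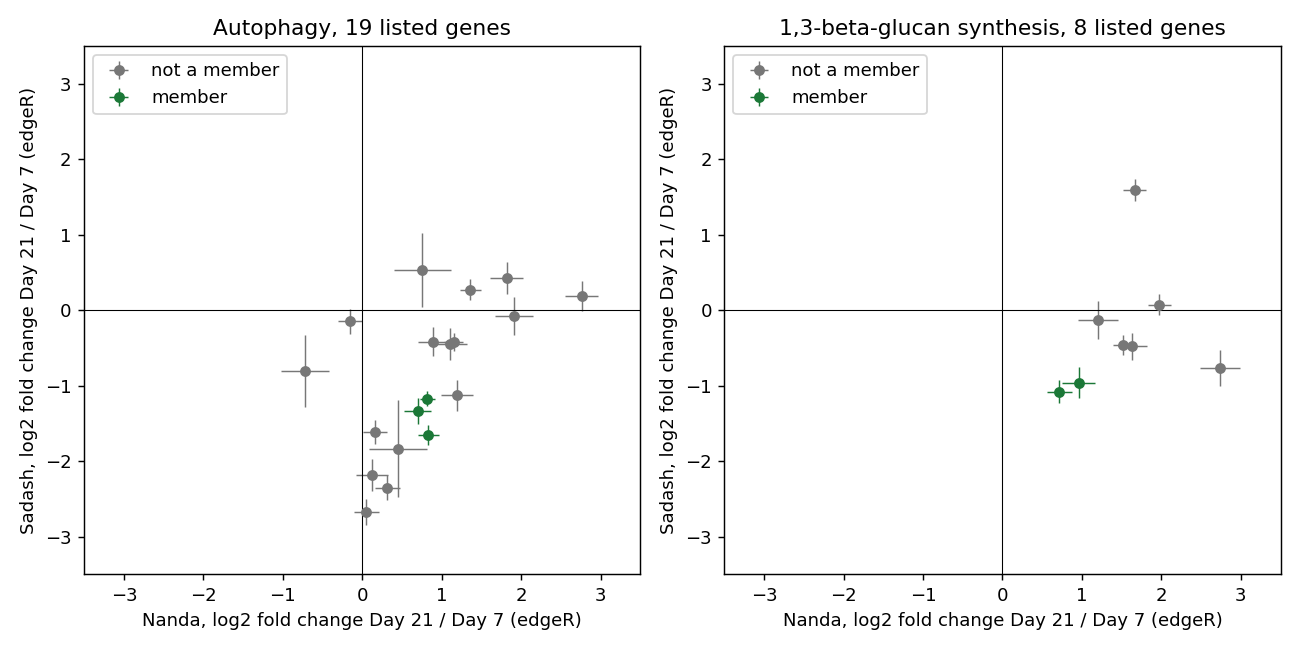
Log2 fold changes from Day 7 to Day 21 in Nanda (horizontal) and Sadash (vertical) for the 19 autophagy and 8 callose synthesis genes. Bars are approximate standard errors, back-calculated from the edgeR fold change and its F statistic, and members are in green. The members lie at changes between 0.70 and 0.96 in Nanda and between -1.66 and -0.96 in Sadash, so that none of the 5 reached the fold threshold in Nanda and 4 did in Sadash.

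Calcium enters the cytosol through transporters and serves as a signal in pollen and in stress responses. TRAESCS5A02G276700, a calcium ion transport gene with 7 transcript models, was at 1.19, 1.24 and 1.87 TPM in Nanda on Day 7 and 9.62, 14.5 and 13.6 TPM on Day 21, and in Sadash at 1.85, 1.11 and 3.03 TPM on Day 7 and 0.08, 0.21 and 0.20 TPM on Day 21. TRAESCS2A02G444600, under the same term, was high on Day 0 in both cultivars, at 9.32 ± 0.496 TPM in Nanda and 16.0 ± 1.98 TPM in Sadash. It then stood at 0.65, 1.1 and 1.05 TPM on Day 7 and 2.76, 3.22 and 3.55 TPM on Day 21 in Nanda, and at 2.51, 2.68 and 2.98 TPM and 0.46, 0.25 and 0.34 TPM in Sadash. Most of its course was a decline from the microspore stage in both cultivars, and the opposed changes took place at a low level. The Day 0 differences were -0.66 ± 0.24 (adjusted p = 0.052) and -0.76 ± 0.18 (adjusted p = 0.0036) and did not reach the thresholds.

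Defence and jasmonate genes govern stress responses in leaves and anthers. TRAESCS5B02G473500, annotated as responding to biotic stimuli, was absent or nearly so in 3 of its 6 groups: Nanda was at 0.04, 0 and 0 TPM on Day 0 and at 0 in all 3 libraries of Day 7, and Sadash was at 0 in all 3 libraries of Day 21. Nanda reached 9.88, 10.9 and 14.6 TPM on Day 21, while Sadash was at 6.25, 8.93 and 5.19 TPM on Day 0 and 0.28, 2.79 and 3.38 TPM on Day 7. Sadash thus held the transcript at the start and lost it, and Nanda gained it. TRAESCS3A02G037700, annotated to the regulation of the defence response, was low on Day 0 in both, at 0.397 ± 0.284 TPM in Nanda and 0.243 ± 0.191 TPM in Sadash. It was at 0.59, 0.94 and 1.49 TPM in Nanda on Day 7 and 10.8, 11.4 and 6.77 TPM on Day 21, and at 4.86, 4.58 and 6.40 TPM in Sadash on Day 7 and 0.59, 1.15 and 0.40 TPM on Day 21.

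TRAESCS2A02G563400, under regulation of jasmonic acid signalling, was higher in Nanda on Day 0, at 9.85 ± 1.06 TPM against 5.40 ± 0.316 TPM in Sadash, a log2 difference of 0.95 ± 0.23 that lay just under the fold threshold (adjusted p = 0.0046). Between Day 7 and Day 21 it moved from 4.41 ± 0.838 to 11.4 ± 1.48 TPM in Nanda and from 5.64 ± 2.95 to 1.98 ± 0.27 TPM in Sadash. TRAESCS4A02G173800, described as an acidic chitinase and matched to a xylanase inhibitor of rice, went the other way in level: Sadash was at 127, 7.24 and 73.8 TPM on Day 7 and 13.2, 49.1 and 15.3 TPM on Day 21, which overlapped, and Nanda at 4.15 ± 0.937 and 9.11 ± 3.44 TPM. It was the exception among the 200 genes in having a higher mean in Sadash than in Nanda on Day 21, and its Sadash Day 7 mean rested on replicates 1 and 3.

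The remaining annotated members were few. TRAESCS1D02G375700, of phospholipid synthesis and methylation, was at 26.9 ± 10.3 TPM in Nanda and 92.9 ± 17.6 TPM in Sadash on Day 0 and afterwards under 5 TPM in every library. TRAESCS7B02G181500, of vesicle targeting, was at 2.35 ± 0.96 and 10.4 ± 1.34 TPM in Nanda on Day 7 and Day 21 and at 6.36 ± 3.52 and 2.66 ± 0.795 TPM in Sadash. TRAESCS7D02G061700, a negative regulator of gene expression by its term, was at 1.1 ± 0.575 and 6.19 ± 1.5 TPM in Nanda and at 3.57 ± 0.422 and 1.02 ± 0.373 TPM in Sadash. These genes were all called lower in Nanda on Day 0, by -1.77 ± 0.44 (adjusted p = 0.006), -2.29 ± 0.39 (adjusted p = 0.00027) and -1.92 ± 0.34 (adjusted p = 0.00035).

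Whether the cultivars already differed in these genes as isolated microspores was asked in the Day 0 libraries. The members were shifted towards lower expression in Nanda. Of the 182 tested, 40 were called lower in Nanda and 5 higher, which is 22% and 2.75% of them, whereas over all tested genes 5.12% were called lower and 5.44% higher. The median log2 fold change of Nanda over Sadash was -0.56 in the members and 0.00 over all tested genes, and 125 of the 182 were below 0, compared with 46.2% of all tested genes. Counting all 200 genes by mean TPM, 138 were higher in Sadash on Day 0, 57 were higher in Nanda and 5 were equal. Over all tested genes 47.1% were higher in Sadash. All 3 Sadash libraries were above all 3 Nanda libraries in 102 of the 200, beside 25.5% of all tested genes, and the reverse held in 18, beside 24.8%. Each of the 182 reached 1 CPM in a Day 7 or Day 21 library, so none entered the test through Day 0 alone.

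A like excess on Day 0 was also seen outside the module, among genes with a large difference on Day 7. In 194 of the 200 members the mean on Day 7 was lower in Nanda than in Sadash, which the choice favours. Among 4668 tested genes outside the module with a Sadash Day 7 level at least 2-fold above that of Nanda on the TPM + 1 scale, 21.7% were called lower in Nanda on Day 0 and 4.6% higher. Of the 113 tested members with such a difference, 27 (23.9%) were called lower and 2 higher. That comparison was chosen after the Day 0 counts had been seen, and none was made for the tested members with a smaller Day 7 difference. The 200 genes with the mirrored pattern, a fall in Nanda and a rise in Sadash, gave 7 called lower (3.8%) and 10 called higher (5.4%) of 184 tested, with a median of 0.29.

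The members called lower in Nanda on Day 0 had log2 fold changes between -8.54, a fitted value that depends on the prior count, and -1.01, with a median of -1.43. In all 40 the Day 0 libraries of the cultivars did not overlap in TPM, which the thresholds of the call favour. The largest difference was that of TRAESCS5B02G473500 described above, with 2 counts in the Nanda Day 0 libraries together and 793 in those of Sadash. Per total count this was a ratio of 419, with a 95% exact interval of 116 to 3468 for counting error only (edgeR adjusted p = 9.9e-06). TRAESCS3B02G086400 followed with a log2 fold change of -3.49 ± 0.33 (SE, adjusted p = 3.8e-07).

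TRAESCS6B02G146600 was at 1.43, 0.74 and 0.88 TPM in Nanda on Day 0 against 8.99, 8.32 and 9.97 TPM in Sadash, a log2 fold change of -3.17 ± 0.23 (adjusted p = 1.1e-08). On Day 7 it was at 0.597 ± 0.2 TPM in Nanda and 6.48 ± 0.85 TPM in Sadash, and on Day 21 at 5.76 ± 0.768 and 1.82 ± 0.308 TPM. TRAESCS5B02G006900 was at 1.60, 1.51 and 1.42 TPM in Nanda on Day 0 against 8.65, 9.80 and 8.98 TPM in Sadash (-2.58 ± 0.24, adjusted p = 2.6e-07), and on Day 21 the order was turned, at 4.58 ± 0.254 TPM against 0.253 ± 0.163 TPM. TRAESCS5B02G369100 was at 0.29, 0.19 and 0.23 TPM against 1.78, 1.66 and 1.90 TPM (-2.87 ± 0.46, adjusted p = 0.00021). Among the abundant members, TRAESCS5B02G452600 was lower in Nanda by -1.89 ± 0.23 (adjusted p = 7e-06) and TRAESCS5D02G118000 by -1.32 ± 0.15 (adjusted p = 2.8e-06), while TRAESCS5B02G112800, at -0.77 ± 0.11, lay under the fold threshold.

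The 5 members called higher in Nanda on Day 0 were a smaller share than over all tested genes, and the count depended on single libraries. TRAESCS6D02G390600 was at 65.8, 53.9 and 59.8 TPM in Nanda against 28.8, 28.6 and 28.7 TPM in Sadash, a log2 fold change of 1.08 ± 0.11 (adjusted p = 6e-07). TRAESCS4D02G206600 was at 2.85, 3.05 and 2.77 TPM against 0.11, 1.56 and 0.04 TPM (2.35 ± 0.58, adjusted p = 0.0052), with Sadash replicate 2 far above the other two of its group. TRAESCS5A02G229000 was at 2.5, 3.54 and 2.28 TPM against 0.65, 0.14 and 0.65 TPM (2.57 ± 0.67, adjusted p = 0.0083). TRAESCS2B02G095900 and TRAESCS1A02G295600 differed by 1.07 ± 0.24 (adjusted p = 0.003) and 1.24 ± 0.32 (adjusted p = 0.0075). TRAESCS5A02G229000 lost its call in 15 of the alternatives run, and TRAESCS1A02G295600 in 11. Leaving out Nanda Day 0 replicate 2 left 2 members called higher in Nanda, and leaving out Nanda Day 0 replicate 1 or 3, Nanda Day 7 replicate 2, Nanda Day 21 replicate 1 or 2, or Sadash Day 0 replicate 3 left 3.

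**Figure D5:**
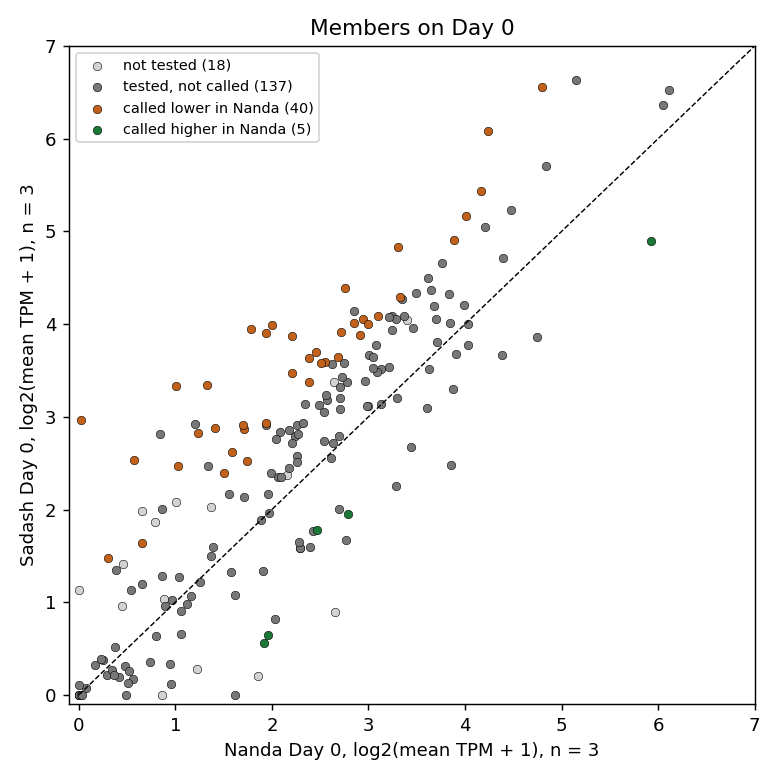
Mean Day 0 level of the 200 members in Nanda (horizontal) and Sadash (vertical) as log2(mean TPM + 1), n = 3 libraries each, with the dashed line at equal levels. The 40 genes called lower in Nanda lie above the line over the whole range of levels, the 5 called higher lie below it, and 18 genes were not tested.

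The members fell into groups by their Day 0 level. In 145 the mean was at least 1 TPM in both cultivars on Day 0, in 26 it was so in one cultivar and in 29 in neither. The first group had medians of 5.49, 3.04 and 9.56 TPM in Nanda over the 3 stages and 9.09, 8.12 and 2.72 TPM in Sadash, so that its genes were present in the microspore, persisted to Day 7 in Sadash and were lower on Day 7 in Nanda. It held 140 of the 182 tested members and 36 of the 40 called lower in Nanda. Its Day 0 level itself makes a call easier, and the share of all tested genes at that level is not given here. The last group was near silent on Day 0, with medians of 0.29, 0.22 and 2.61 TPM in Nanda and 0.14, 2.80 and 0.19 TPM in Sadash. Its medians were thus highest on Day 7 in Sadash and on Day 21 in Nanda. The choice of members and the limit on Day 0 favour the courses of the first and last groups alike. None of the 24 tested genes of the last group was called on Day 0 by edgeR, and 2 had an unadjusted p under 0.05. DESeq2 called 1, and limma-trend called 0 on log2(TPM + 1) and 1 on log2(TPM + 0.1). Low Day 0 values defined the group and leave little room for a call, so these counts cannot show that the cultivars were alike. TRAESCS3A02G037700 and TRAESCS4A02G056400 belonged to this group and TRAESCS5A02G196400 to the first.

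Most members had a single transcript model. Of the 200, 61 (30.5%) had 2 or more, compared with 23.5% of tested genes. In 49 of the 61 the transcript with the highest mean in Nanda on Day 21 was also the highest in Sadash on Day 7, and in 12, including TRAESCS3B02G086400, TRAESCS5A02G276700 and TRAESCS2A02G563400, it was another. Where 2 or more transcripts reached 1 TPM in a group, in 38 members, all of these transcripts went up in Nanda and down in Sadash in 20. The division of reads among transcripts is an estimate, and no test was made at this level.

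The members were spread over the genome. Of the 200, 73 were on the A subgenome (36.5%, compared with 32.4% of tested genes), 61 on B (30.5% and 33.1%), 61 on D (30.5% and 33.2%) and 5 on unanchored scaffolds. Chromosome 5B held 14 (7.0%, beside 5.4% of tested genes) and chromosome 4B held 3 (1.5% and 3.9%). Chromosomes 4A and 5A held 13 each (6.5%, beside 4.4% and 5.1% of tested genes). The nearest tested genes outside the module before and after each of the 195 anchored members, in the order of their identifiers and passing over other members, gave 388 flanking genes. Of these, 62 rose in Nanda between Day 7 and Day 21 (16.0%, beside 15.7% of the 62510 tested genes outside the module) and 75 fell in Sadash (19.3%, beside 18.3%). The change was higher in Nanda than in Sadash in 35 (9.0%, beside 6.57%) and lower in 38 (9.8%, beside 9.43%, or 9.4% of all tested genes). Limma-trend on either TPM scale called 69 as higher in Nanda. Its share over all tested genes is not given here, so no excess can be read from that count. No flanking gene was called by edgeR as both rising in Nanda and falling in Sadash, but so few genes outside the module were (0.149%) that a count of 0 among 388 shows little. At an unadjusted p under 0.05, 11 were, DESeq2 called 0, and limma-trend called 0 on log2(TPM + 1) and 2 on log2(TPM + 0.1). These counts too stand without a share over all tested genes and show no excess. The 3 pairs named above were the only anchored members within 3 identifiers of each other.

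Of 10 GO lists taken from the study's own Day 7 and Day 21 comparisons of the cultivars, the autophagy list alone held members, although the cellulose, transcription initiation, splicing and ion transport lists were shortened to 21 genes in the copy used. The 10 lists held 160 other tested genes. Of these, 62 were called as rising in Nanda (38.8%, beside 15.7% of tested genes outside the module) and 64 as falling in Sadash (40%, beside 18.3%). Both were met by 3 (1.9%, beside 0.149%), TRAESCS7A02G208300 of autophagy and TRAESCS4A02G410200 and TRAESCS4B02G310300 of ion transport. In lists of genes higher in Nanda on Day 21, a rise in Nanda was called for 18 of 21 cellulose synthesis genes, 8 of 12 callose synthesis genes, 13 of 14 genes of phenylalanine breakdown, 7 of 19 of heterochromatin formation and 6 of 8 of nonsense-mediated decay. In the same lists a rise in Sadash was called for 7 of the cellulose genes, 4 of those of phenylalanine breakdown and 2 of those of heterochromatin formation, and a fall for 2 of the cellulose, 2 of the callose and 6 of the heterochromatin genes. In lists of genes lower in Nanda on Day 7, a fall in Sadash was called for 17 of 21 transcription initiation genes, 14 of 21 splicing genes, 5 of 11 zinc transport genes and 15 of 21 ion transport genes, and a fall in Nanda for 11, 9, 4 and 6. Falls in Nanda were also called for 1 callose and 4 heterochromatin genes. Over all tested genes 18.3% were called as falling in Nanda and 16.8% as rising in Sadash. The heterochromatin counts in these directions were near or below those shares. The study chose these lists on the same libraries.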

How the data were processed

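The authors trimmed reads with Trimmomatic 0.39, aligned them to IWGSC v1.1 with STAR 2.7.5a and deposited RSEM 1.3.3 expected counts per transcript. The authors also deposited TPM per transcript from the same run. Transcript values were summed per high-confidence gene, and the counts were rounded. Members were ranked on TPM. Counts were fitted over all 18 libraries by edgeR 4.0.16 (quasi-likelihood, TMM, at least 1 CPM in at least 1 library, Benjamini-Hochberg adjustment), after the fit had been tested on simulated data. Replicates are the biological replicates of the labels, and p-values set group differences against the spread between them. That spread was estimated over all 18 libraries. Standard errors (SE) of log2 fold changes are approximate and are not an output of edgeR. Each was back-calculated as the absolute log2 fold change over the square root of the quasi-likelihood F statistic. They are unreliable where a group held few or no counts. The members and lists were chosen with earlier results of these data known. Genes were named by rule: the 12 highest scores, the 10 most abundant, every annotated member, the 5 largest called Day 0 differences in each direction, the 3 genes on each side of the limit, and the 3 largest called genotype differences among flanking and among listed genes. The callose list of Day 0, the stage markers' use beside the module and TRAESCS7A02G208300 were added after values were seen. Alternatives were DESeq2 1.42.0, RLE factors, other filters, limma-trend (limma 3.58.1) on log2(TPM + 1) or log2(TPM + 0.1), a replicate block, fewer libraries, and each library left out. R 4.3.3 and Python 3.11.15 were used. No sequence of these genes was used here, and homoeologs were not analysed because no member occurs in the 1999 triads at hand.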

Additional observations from a re-analysis of the deposited data

Results flagged for a closer look

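Among genes outside the module, the change from Day 7 to Day 21 differed between the cultivars by the interaction of cultivar and stage for 3 flanking and 3 listed genes with the largest differences. Next to the member TRAESCS2B02G533400, TRAESCS2B02G533300 fell further in Nanda than in Sadash, by a log2 difference of -6.12 ± 0.98 (SE, edgeR adjusted p = 0.00012). Its level was 47.7 ± 4.52 TPM in Nanda on Day 7 and 0.233 ± 0.199 TPM on Day 21, whereas the mean of the adjacent member went up. TRAESCS3D02G112900 and TRAESCS1A02G380300 differed by 4.65 ± 0.74 and 4.43 ± 0.45, both through a fall in Sadash, from 0.69 ± 0.26 to 0.023 ± 0.021 TPM and from 1.54 ± 0.436 to 0.037 ± 0.04 TPM, without a called change in Nanda.

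Of the listed genes, TRAESCS4A02G410200 and TRAESCS4B02G310300, both of inorganic ion transport, differed by fitted values of 12.76 and 11.67. They had no TPM in Nanda on Day 7, so these values depend on the prior count and give no fold. Their levels were low, at 1.37 ± 0.535 and 1.17 ± 0.852 TPM in Sadash on Day 7 and 0.317 ± 0.156 and 0.153 ± 0.021 TPM in Nanda on Day 21. TRAESCS3B02G443000, of cellulose synthesis, differed by 4.43 ± 0.64 (adjusted p = 4.5e-05), with 3.92 ± 1.94 TPM in Sadash on Day 7 and 0.22 ± 0.098 TPM on Day 21.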

How the results depend on the processing

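The membership depended on the scale. Of the 200 genes, 58 were chosen again with a pseudocount of 0.1, 95 with 5, 104 from TMM-normalized CPM and 122 from medians of replicates; leaving out 1 library kept 140 to 176, and 65 were kept in all 12 such cases. The count of members lower in Nanda on Day 0 was between 27 and 43 with a library left out, 46 with only the 6 Day 0 libraries, and within 1.5 times of 40 in every alternative run. The count of members higher in Nanda was 8 by DESeq2, 2 by limma-trend on log2(TPM + 1), and 2 to 6 with a library left out. Flanking genes with a change higher in Nanda numbered 69 by limma-trend on either TPM scale, against 35, and 26 to 38 with a library left out. For limma-trend the share over all tested genes is not given here. With a library left out, 51 to 68 flanking genes rose in Nanda and 68 to 79 fell in Sadash, and 55 to 63 listed genes rose and 59 to 65 fell. Of the 10 members named for Day 0, none reversed under any alternative; 4 of the 5 higher in Nanda lost the call in some, and the 5 lower in Nanda in none. Replicate numbers did not pair the Day 0 samples, since same-numbered libraries of the cultivars had correlations of -0.059, -0.165 and -0.124 between their deviations. Over all 45 pairs of same-numbered libraries the median was -0.016 (-0.174 to 0.3), but for Day 21 of Nanda and Sadash all 3 were over 0.1 (0.106, 0.119 and 0.3). With a replicate block 37 members were lower and 4 higher in Nanda on Day 0; 58 flanking genes rose in Nanda, 72 fell in Sadash and 31 had a change higher in Nanda, and 61 listed genes rose and 63 fell. The homoeolog comparison was not run, since no member occurs in the triads at hand.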
